A study of Mus musculus with 2 samples.

Results

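The cytoplasmic ribosomal protein (RP) genes encode the proteins of the ribosome that works in the cytosol. They were taken by symbol: Rpl or Rps with a number and at most 1 letter a, x or l, plus Rplp0, Rplp1, Rplp2 and Rpsa. This gave 81 of the 27998 gene rows, of which 31 belong to the small subunit (40S) and 50 to the large subunit (60S). All 81 had a UMI in the matrix, and RefSeq places them on 19 chromosomes, with 14 on chromosome 7.

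The cells came from fetal livers of 7 pooled C57BL/6 mouse embryos at e13.5, with no transgene or treatment named. CITE-seq gave 1 cDNA library, read as UMI counts (unique molecular identifiers, 1 per captured transcript) for every gene of every cell, and 1 library of barcoded antibodies from the same cells. Ter119+ cells had been depleted and an equal number of them added back, so the share of cells in a stage does not describe the liver. The cells were grouped by 2 antibodies, Ter119, which marks maturing red cell precursors, and CD71, the transferrin receptor. Cells low in Ter119 formed S0-low (1510 cells), S0-medium (1054) and S1 (612) by rising CD71, cells intermediate in Ter119 and high in CD71 formed S2 (1297), and cells high in Ter119 formed S3 (853, CD71 high) and S4/S5 (883, CD71 lower). The embryos were pooled and there is 1 library, so there are no replicates, cells are not replicates, and no p-value is given. Each value in brackets is a 95% interval for counting error alone. It leaves out differences between animals, libraries and gates. It also leaves out differences between the cells of a stage, so it is narrower than the spread of cells would give.

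The matrix held 7863 cells, with a median of 5707 UMIs per cell (2510 to 38047) and no duplicated barcode. The summed level of 6 erythroid genes rose from 4.76 UMIs per cell in S0-low to 40.7 in S3, and was 29.0 in S4/S5. The S0-low gate was mixed: 7 hepatocyte genes gave a mean of 64.7 UMIs per cell there, at 156 in its cells low in cKit and 1.95 in its cells high in cKit. In the other stages the mean was 2.75 to 6.92, with none of the 7 genes at 0 in any stage. The sum of 5 myeloid genes had a mean of 4.59 UMIs per cell in cKit-high and 2.36 in cKit-low S0-low cells. In the other stages that mean was 0.202 to 0.354, so the cKit-high class was not free of transcripts of other lineages.

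A ribosome carries most of its proteins in equal number, and RP transcripts are among the most abundant of any growing cell. Many begin with a stretch of C and T at the very start of the mRNA, the terminal oligopyrimidine tract, through which their translation is controlled together. Red cell precursors depend on ribosomes to make globin, and loss of 1 copy of any of several RP genes causes Diamond-Blackfan anaemia, a failure of red cell production. The last precursors stop making ribosomes, lose the nucleus and in the end clear their ribosomes.

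The windows around the RefSeq start sites of 10 members are printed because these genes carry the levels and changes described below. Each runs from 10 bases before to 20 bases from the start, on build GRCm38.p6, 5′ to 3′ on the strand of the gene. Capitals mark the longest run of C and T within the 15 bases from 5 before the start. The first 6 have long runs and the last 4 have short ones.
Rpl35: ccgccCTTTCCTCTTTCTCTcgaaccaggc
Rps18: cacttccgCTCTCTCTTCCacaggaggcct
Rps6: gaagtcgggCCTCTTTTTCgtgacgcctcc
Rpl38: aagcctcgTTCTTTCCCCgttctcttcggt
Rplp2: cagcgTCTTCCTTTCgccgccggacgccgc
Rpl18: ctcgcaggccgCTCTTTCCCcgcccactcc
Rps2: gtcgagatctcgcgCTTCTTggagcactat
Rpsa: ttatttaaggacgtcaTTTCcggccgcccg
Rplp0: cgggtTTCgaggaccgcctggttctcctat
Rpl41: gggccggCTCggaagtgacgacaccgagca
They lie at chr2:39005112-39005141 (minus strand, Rpl35), chr17:33955646-33955675 (minus, Rps18), chr4:86857348-86857377 (minus, Rps6), chr11:114668570-114668599 (plus, Rpl38), chr7:141447641-141447670 (plus, Rplp2) and chr7:45718061-45718090 (plus, Rpl18). Those with short runs lie at chr17:24720053-24720082 (plus, Rps2), chr9:120127756-120127785 (plus, Rpsa), chr5:115559457-115559486 (plus, Rplp0) and chr10:128549149-128549178 (minus, Rpl41). Each window spans the end of the promoter and the first transcribed bases of the gene.

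Of the 60 members with a promoter in the RefSeq table, 28.3% had a run of at least 8 C or T in those 15 bases, against 4.46% of the promoters of 27025 genes. A C at the listed start was found in 31.7% of the members and 16.2% of all promoters. The letters CCGGAAG, on either strand in the 300 bases from 250 before the start, were found in 40% of the members and 9.12% of all promoters. The letters TATAAA were found in 8.33% and 14.2%, and AAGATGGC in 6.67% and 2.88%. Of 69 mitochondrial RP genes, whose proteins form the separate ribosome of the mitochondrion, 2.90% had the C and T run and 36.2% had CCGGAAG. The members and the mitochondrial RP genes thus had CCGGAAG at like shares, and the C and T run was rare in the mitochondrial ones. The listed start is 1 site per gene, and a shifted start moves these shares.

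RP transcripts made up a large and steady share of the RNA of early cells, and that share fell within the Ter119-positive stages. The 81 genes together held, as the mean over cells, 19.02% of all UMIs of S0-low, 19.3% of those of S0-medium and 19.5% of those of S1. They held 15.4% in S2, 7.34% in S3 and 3.16% in S4/S5. Globin UMIs filled the total in the late stages, at 1.30% of UMIs in S0-low, 18.03% in S2, 43.2% in S3 and 65.6% in S4/S5. The RP share was therefore also taken of the UMIs of all other genes. It was then 19.2% (19.2–19.3) for S0-low, 19.7% for S0-medium, 20.2% for S1, 18.1% for S2, 11.7% for S3 and 9.11% for S4/S5. On both scales the first 3 stages lay close together and S3 and S4/S5 lay below them.

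**Figure D1:**
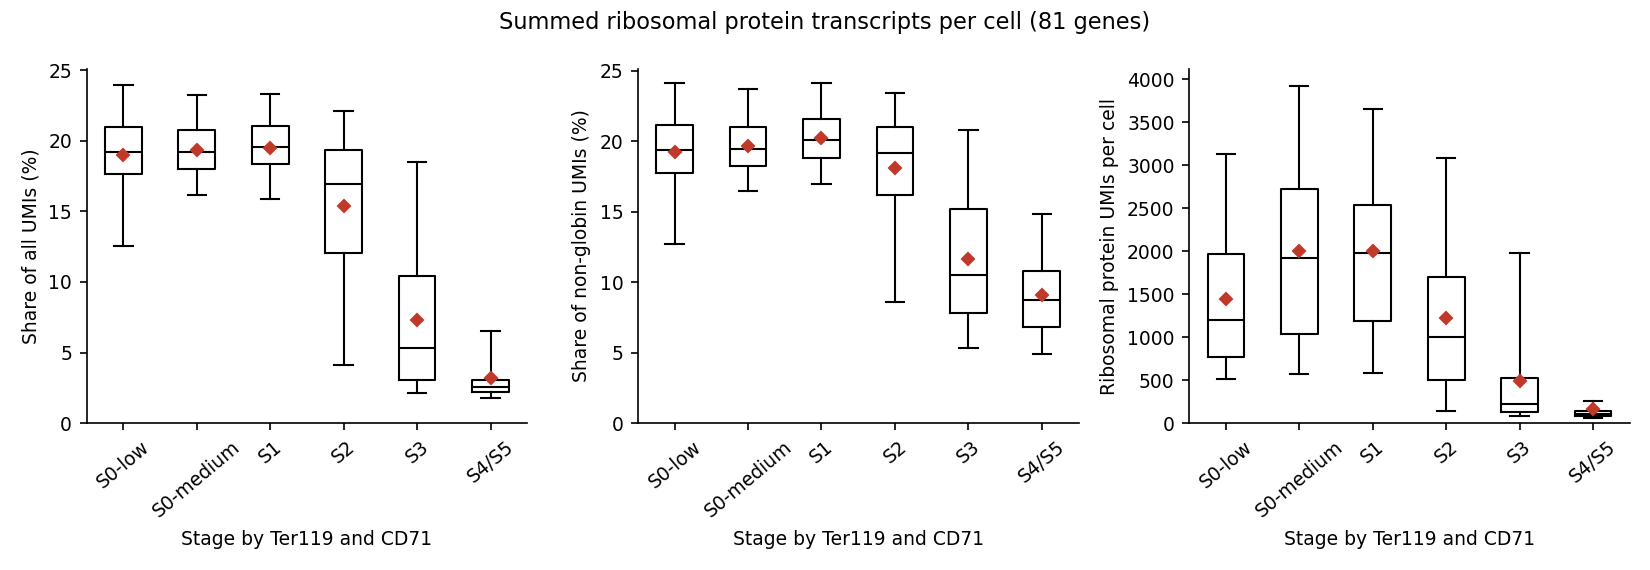
Summed ribosomal protein transcripts of the 81 genes per cell in 6 stages, as a share of all UMIs (%), a share of non-globin UMIs (%) and UMIs per cell. Boxes are quartiles of cells, black lines medians, whiskers the 5th and 95th percentiles of cells and red diamonds means. The median share of non-globin UMIs was 19.4% in S0-low, 20.1% in S1, 10.5% in S3 and 8.74% in S4/S5.

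From S0-low to S3 the RP sum fell to 0.386 times its level in CPM (counts per 1000000 UMIs of a cell) and to 0.607 times (0.605–0.610) per non-globin UMI. From S3 to S4/S5 it fell to 0.431 times in CPM and 0.780 times per non-globin UMI. The fall was thus larger in CPM, whose total includes globin, than per non-globin UMI. In UMIs per cell, with no denominator, the sum was 1448 for S0-low, 1999 for S0-medium, 2001 for S1, 1224 for S2, 490 for S3 and 158 for S4/S5. S0-medium and S1 cells thus held the most RP transcripts, 1.38 times the count of S0-low, in cells that also had more UMIs in all. Less RNA in a cell and weaker capture from that cell cannot be told apart in these counts.

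Cells of the Ter119-high stages differed among themselves. In S3 the quartiles of cells were 7.82% and 15.2% of non-globin UMIs, while in S1 they were 18.8% and 21.6%. Within S3 the group of 214 cells with the fewest non-globin UMIs had a mean RP share of 8.54%, and the 213 cells with the most had 17.7%. In S2 the lowest and highest of 4 such groups had 12.9% and 20.9%, and in S0-low, 19.4% and 18.5%. In S4/S5 the 4 groups had 10.1%, 8.66%, 8.61% and 9.11% from fewest to most. The RP share was thus higher in cells with more captured non-globin UMIs in S2 and S3, and not in S0-low or S4/S5. Globin moved too, from 60.04% to 20.3% of UMIs between the same groups of S3. When UMIs of all cells were pooled, so that cells with more captured UMIs counted more, the share was 19.04% in S0-low, 19.7% in S2, 14.7% in S3 and 10.3% in S4/S5. The S3 over S0-low ratio was then 0.773 and the S4/S5 over S3 ratio 0.699.

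Cells were therefore also compared within a narrower range of depth. Among cells with 2000 to 4000 non-globin UMIs, the RP share was 19.7% in S0-low (351 cells), 20.5% in S0-medium (144), 20.8% in S1 (75), 16.2% in S2 (372), 10.9% in S3 (332) and 7.99% in S4/S5 (101). S3 and S4/S5 lay below the early stages within this range too. Depth still differed inside it, with a median of 3240 non-globin UMIs in S0-low, 2651.5 in S3 and 2272 in S4/S5, and of 3270, 4615 and 4991 UMIs in all. Between 4000 and 8000 non-globin UMIs the share was 19.4% in S0-low, 19.8% in S2, 17.0% in S3 (132 cells) and 18.8% in S4/S5 (11). Between 1000 and 2000 it was 10.0% in S2 (126), 8.76% in S3 (308) and 8.53% in S4/S5 (523). The 3 S0-low, 8 S0-medium and 4 S1 cells there had 5.67%, 10.7% and 7.93%. The stages thus lay closer together in these ranges than at 2000 to 4000. Each cell was also thinned to 2000 UMIs, which no cell fell short of. The median number of the 81 genes with a UMI was then 66 in S0-low, S0-medium and S1, 64 in S2, 48 in S3 and 33 in S4/S5, against 73, 74, 74, 72, 60 and 47 before thinning. Globin takes part of a fixed number of UMIs, so this count is lower where globin is higher.

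Along the antibody and globin counts the fall had a place. When the staged cells were put into 10 equal groups by Ter119 count, the RP share of non-globin UMIs was 19.3% to 20.1% in the first 6 groups. It was 17.1%, 12.6%, 10.1% and 9.38% in the last 4, whose median Ter119 counts were 61, 98, 135 and 193. By the globin share of a cell, it was highest at 20.9% in cells with 5 to 10% globin and lowest at 7.29% in cells with 50 to 60%. In the most globin-rich cells it was higher again, at 10.2% in the 347 cells with 70 to 80% globin and 11.5% in the 112 cells above 80%. Those cells held a median of 1123 and 743.5 non-globin UMIs, and the part of depth and of free RNA in their higher share was not tested. Over all S4/S5 cells, the sum of hepatocyte genes, which these cells should lack, had a median of 3 UMIs per cell. The RP genes had a median of 101 there. As CPM of non-globin UMIs alone, the hepatocyte sum was 426 in S0-medium, 541 in S2, 1273 in S3 and 2346 in S4/S5. How many RP UMIs came with stray hepatocyte UMIs was not tested, so these medians do not measure the part of free RNA.

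**Figure D2:**
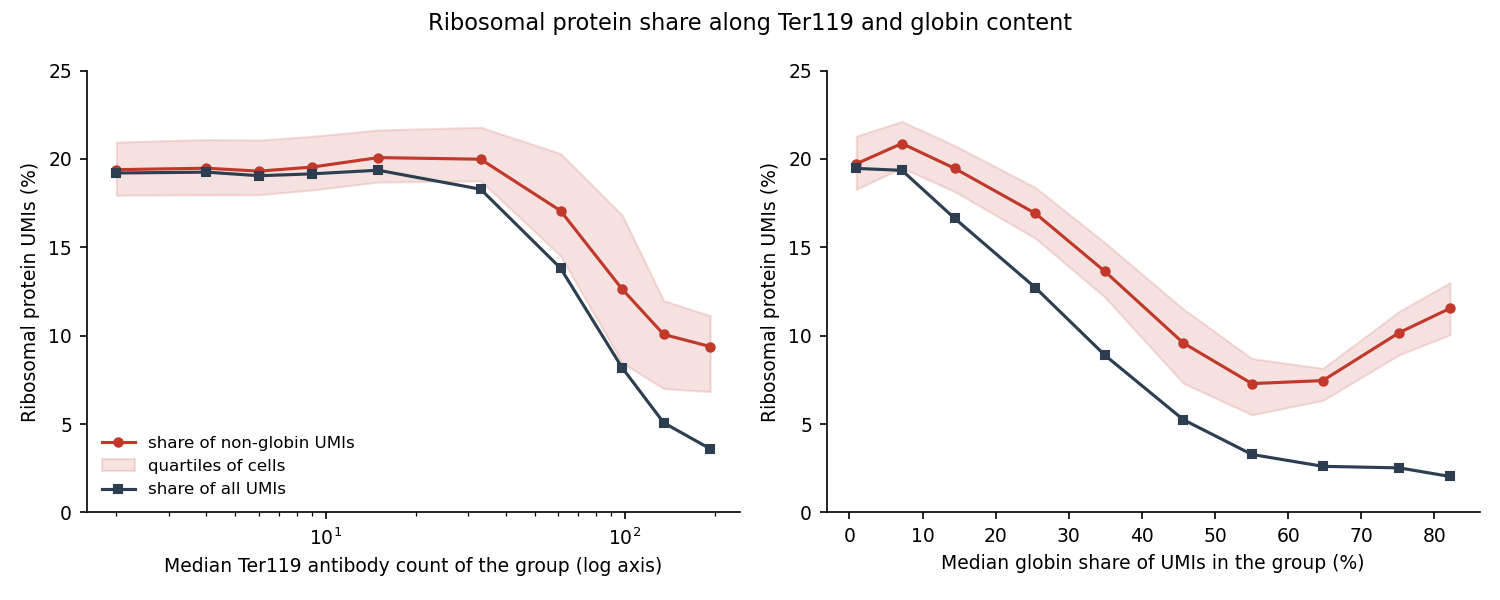
Ribosomal protein share of non-globin UMIs (red, mean over cells, with the quartiles of cells shaded) and of all UMIs (dark squares) in groups of staged cells. Left, 10 equal groups by Ter119 antibody count (log axis); right, 10 groups by the globin share of the cell. The red line leaves its early level of about 19 to 20% where Ter119 exceeds 47 counts, and turns up above a globin share of 60%.

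CD71 ordered the Ter119-low cells with less change. In 10 groups of rising CD71 the RP share of non-globin UMIs was 20.4% in the first, 18.4% in the third and 20.3% in the last. In the Ter119-high cells it was 8.93% to 9.67% in the 6 groups of lowest CD71, and 10.3%, 11.6%, 11.9% and 15.1% in the others. High CD71 thus went with a high RP share among Ter119-high cells, where it also went with low globin: the median globin share was 75.7% in the first group and 30.9% in the last.

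RP genes differed widely in level, and the order of levels was much alike across stages. In S0-low the level of single members, in counts per 1000000 non-globin UMIs of a cell (non-globin CPM), ran from 5.47 to 7987 among those with a UMI there, with 59 members above 1000 and 7 below 100. Among the highest were Rpl13 (7987), Rplp0 (7617) and Rps6 (6281). Rps6 is the 40S protein phosphorylated by S6 kinase, and Rplp0 anchors the stalk that recruits translation factors. In a 3′ library a transcript gives 1 UMI whatever its length, so these levels are not divided by length. The 10 highest members held 32.7% of the RP sum in S0-low and 29.99% in S4/S5. Across the 81 members the levels in S0-low and S3 had a Spearman correlation of 0.97, and those in S0-low and S4/S5 of 0.96, in the same library.

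The summed transcripts of the 2 subunits kept a similar ratio across the stages. The sum of 40S over that of 60S genes, per non-globin UMI, was 0.845 for S0-low, 0.822 for S0-medium, 0.828 for S1, 0.854 for S2, 0.866 for S3 and 0.824 for S4/S5. The lowest, in S0-medium (0.819–0.825), and the highest, in S3 (0.859–0.873), differed beyond counting error and by little in size. Of 31 members of 40S, 20 were lower by 1.5-fold or more in S3 than in S0-low, and of 49 members of 60S with at least 50 UMIs, 35 were. Both lie near the 62.1% of all genes that were lower.

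At each step the members were set beside all genes with at least 50 UMIs over both stages. Called here means past 1.5-fold per non-globin UMI, since 1 library allows no test. From S0-low to S0-medium, and from S0-medium to S1, none of 80 members tested passed it in either direction, while 21.6% and 10.6% of all genes were lower and 5.95% and 3.25% were higher. From S0-low to S0-medium the hepatocyte genes went from 6367 to 426 non-globin CPM and the myeloid genes from 593 to 32.3. Shares of all genes against the mixed S0-low gate thus include genes of other cell types. How much these add to the shares was not tested. The member ratios for S1 over S0-medium lay between 0.865 and 1.19. From S1 to S2, 1 of 80 members was lower (Rpl39l, on 127 UMIs in both stages), with 26.5% of all genes lower and 9.57% higher. The members' shares thus lay below those of all genes, many of which had fewer UMIs, while CD71 rose and Ter119 appeared.

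A larger fall came next. From S2 to S3, 45 of 79 members (57%) were lower and none was higher, against 26.8% of all genes lower and 11.1% higher. The median ratio was 0.66 for the members and 0.82 for all genes. From S3 to S4/S5, 6 of 78 members (7.69%) were lower and none higher, against 22.7% and 10.4% of all genes, with medians of 0.80 and 0.89. At 2-fold, 1 of 78 was lower, against 8.03% of all genes, and at a ratio of 0.8 or less, 39 of 78, against 38.5%. How the fall divides between these 2 steps depended on the weight of each cell. With UMIs pooled, 6 of 79 members were lower at the first step, against 16.3% of all genes, and 25 of 78 at the second, against 19.5%. Among cells with 2000 to 4000 non-globin UMIs, 32 of 76 were lower from S2 to S3, against 14% of all genes, and 10 of 75 from S3 to S4/S5, against 370 of 2736 genes in all.

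**Figure D3:**
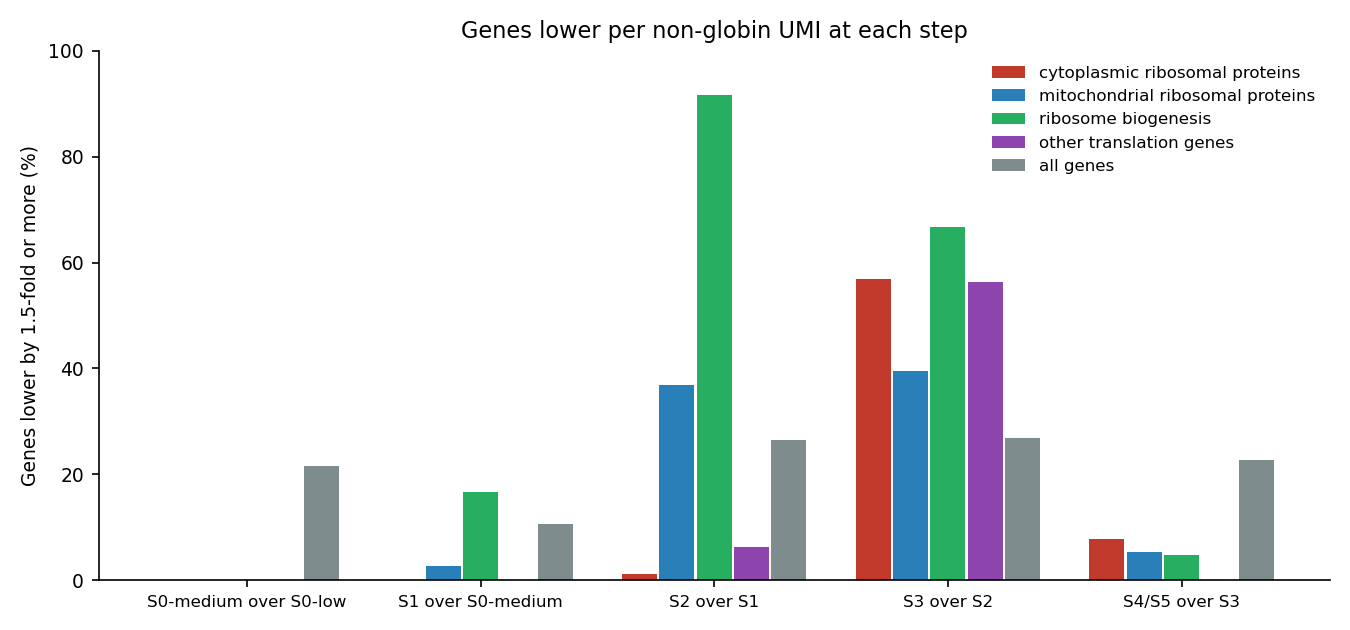
Share of genes (%) lower by 1.5-fold or more per non-globin UMI, mean over cells, at each of 5 steps, for the ribosomal protein genes, 3 comparison lists and all genes with at least 50 UMIs over both stages. From S1 to S2 the ribosomal protein genes stand at 1 of 80, ribosome biogenesis genes at 22 of 24 and all genes at 26.5%. From S2 to S3 the ribosomal protein genes stand at 57% and all genes at 26.8%.

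Over longer spans the members' share against that of all genes depended on the weight of each cell. From S0-low to S3, 55 of 80 members (68.8%) were lower and none was higher, against 62.1% of all genes lower and 14.7% higher. The median ratio was 0.60 for the members and 0.51 for all genes. All shares of all genes against S0-low include genes of the other cell types in that gate, as given above. With pooled UMIs, 13 of 80 members were lower, against 55.4% of all genes, and among cells with 2000 to 4000 non-globin UMIs 60 of 78 were (76.9%), against 49.7%. At 2-fold, 9 of 80 were lower, against 49% of all genes. The member just inside the 1.5-fold limit was Rpl6l at 0.664 and the one just outside was Rpl19 at 0.673. From S0-low to S4/S5, 66 of 80 (82.5%) were lower and none was higher, against 68.7% and 11% of all genes, with a median of 0.48 for the members and 0.49 for all genes. With pooled UMIs 64 of 80 were lower over that span, against 65.5% of all genes, and within the depth window 66 of 75 were, against 58.1%. In S4/S5 a larger share of the members than of all genes was thus past the fold under all 3 weightings. In S3 the members' share lay on either side of that of all genes. The S4/S5 medians did not always follow the shares. They were 0.54 for the members and 0.52 for all genes with pooled UMIs, and 0.40 and 0.54 within the depth window. In CPM, 79 of 80 members were lower in S3 than in S0-low, with 79.5% of all genes, and 76 of 78 were lower in S4/S5 than in S3, with 72.3% of all genes.

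Most genes that build ribosomes passed the fold at an earlier step than the RP genes did. The 24 ribosome biogenesis genes encode nucleolar proteins and assembly factors such as Ncl and Fbl. Of these, 4 were lower in S1 than in S0-medium, against 10.6% of all genes. In S2 against S1, 22 were lower, against 26.5% of all genes, with a median S2 over S1 ratio of 0.50. The median at that step was 0.89 for the RP genes and 0.84 for all genes. The mitochondrial RP genes lay between the biogenesis and the RP genes, with 28 of 76 lower and a median of 0.73. The 16 other translation genes, such as elongation factors, had 1 lower and a median of 0.87. Both counts stand against the same 26.5% of all genes. From S3 to S4/S5 the biogenesis genes had a median of 1.46 on few UMIs, with 10 of 21 higher by 1.5-fold, against 10.4% of all genes. Their summed share of non-globin UMIs went from 0.279% to 0.369% as the mean over cells, and from 0.391% to 0.442% with UMIs pooled. The hepatocyte genes, which these cells should lack, rose at this step too, from 1273 to 2346 non-globin CPM. The myeloid genes were also higher, at 217 in S4/S5. Whether these rises have a common source was not tested. The difference between the biogenesis, translation and RP lists was not tested, since 1 library gives no spread to test it against.

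Single members departed from the sum by more than counting error. For S3 over S0-low the interval of 27 of 80 members lay wholly above the ratio of the RP sum, and that of 32 lay wholly below it. The quartiles of the member ratios were 0.539 and 0.681.

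**Figure D4:**
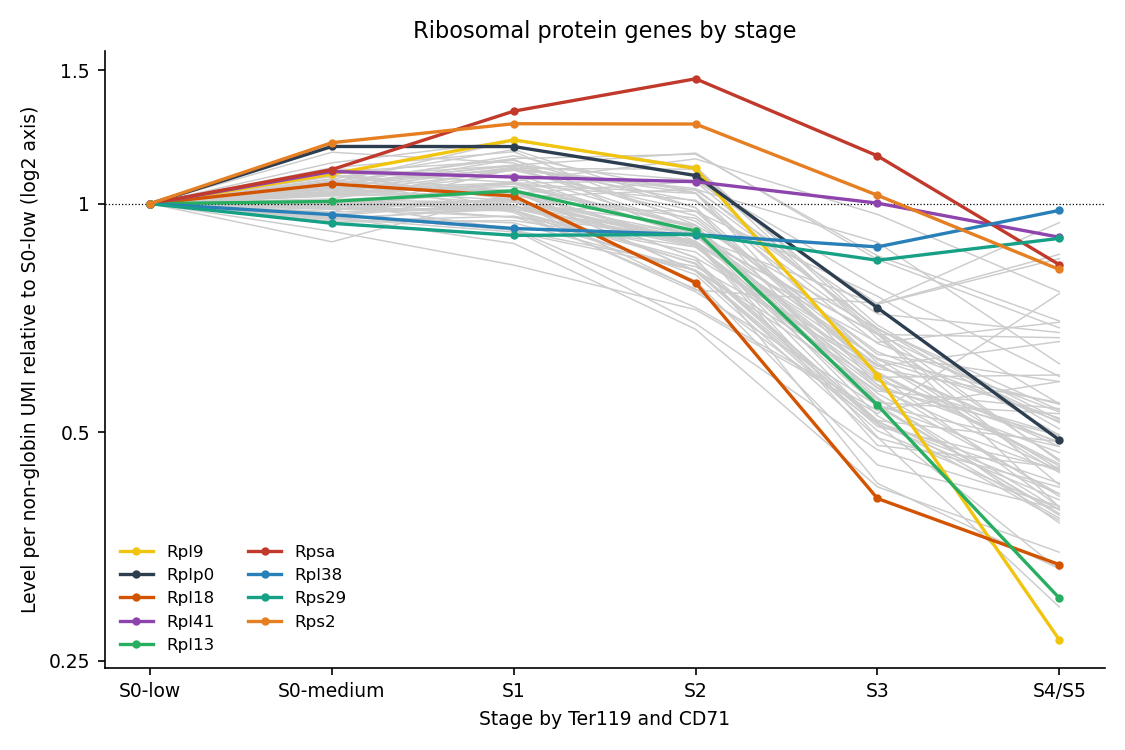
Level of each ribosomal protein gene per non-globin UMI relative to S0-low in 6 stages (log2 axis), for members at 20 or more non-globin CPM in S0-low. Grey lines are single genes; the 9 coloured genes were chosen after their values were seen. Rpsa reaches its top in S2, and Rpl18 is lowest among the coloured genes in S3. Rpl38, Rps29 and Rpl41 lie above most other lines in S3 and S4/S5.

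Rpsa, the 40S protein also described as a laminin receptor, had the highest S3 over S0-low ratio of the members. Its level was 2807 non-globin CPM for S0-low, 3113 for S0-medium, 3717 for S1, 4100 for S2, 3245 for S3 and 2333 for S4/S5. It thus climbed through 4 stages and was still higher in S3 than in S0-low (ratio 1.16, 1.12–1.19), the only member whose interval for that ratio lay above 1. Of 9409 genes in all, 1624 had an interval above 1. The Rpsa ratio was 1.06 to 1.29 over 10 other settings. Within Ter119-low cells Rpsa was at 2984 in the group of lowest CD71, at 2630 in the third and at 3842 in the group of highest CD71.

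Rps2, a 40S protein near the mRNA entry channel, had a like course. It stood at 2990, 3598, 3811, 3807, 3067 and 2449 from S0-low to S4/S5, with an S3 over S0-low ratio of 1.03 (0.998–1.05). Rpl41, which encodes the smallest RP, stood at 1215, 1340, 1317, 1299, 1217 and 1097, and its S3 over S0-low ratio was 1.002 (0.957–1.05). Rpl39, another very short 60S protein at the peptide exit tunnel, stood at 1138, 1123, 1218, 1304, 1102 and 871, with a ratio of 0.968 (0.924–1.01). For these 3 genes S3 could not be told from S0-low by the counting interval, while the RP sum had fallen to 0.607. Rpl23a was the other of the 5 highest ratios, at 0.890 (0.750–1.05), but its level of 91.7 non-globin CPM in S0-low is lower than the 245 of its pseudogene row Rpl23a-ps3, so its count is uncertain.

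Toward the other end stood Rpl18 and Rps18. Rpl18, a 60S protein, was at 2603, 2764, 2664, 2047, 1064 and 871 non-globin CPM from S0-low to S4/S5, an S3 over S0-low ratio of 0.409 (0.392–0.427). Rps18, of the 40S head, was at 3432, 3527, 3547, 2914, 1469 and 1134, a ratio of 0.428 (0.413–0.443). Both stayed near their first level up to S1 and had their largest drop from S2 to S3. The paralog Rps27l was at 0.453 (0.430–0.476). Rpl10l had a ratio of 0.0815 (0.0147–0.450), but from 2 UMIs in S3 and 54 in S0-low.

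The last step had other leaders. Rpl9, a 60S protein, had 227 non-globin CPM in S0-low, 276 in S1, 253 in S2, 135 in S3 and 60.5 in S4/S5, an S4/S5 over S3 ratio of 0.449 (0.347–0.580). Its pseudogene row Rpl9-ps6 had 314 in S0-low, 181 in S3 and 85.5 in S4/S5, a like fall. That row was higher than Rpl9 in each of these stages, so the count of Rpl9 is uncertain. Rpl13 went from 7987 in S0-low to 7353 in S2, 4334 in S3 and 2414 in S4/S5, a last ratio of 0.557 (0.534–0.581). Rpl35, Rps7 and Rps4x completed the 5 lowest, at 0.592, 0.597 and 0.631. Rps4x lies on chromosome X with 3 other members and rose from 4240 in S0-medium to 5091 in S2 before it fell to 2029 in S4/S5. The member just inside the 1.5-fold limit here was Rpl29 at 0.642 and the one just outside was Rps16 at 0.669.

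From S3 to S4/S5, 10 of 78 members had a ratio above 1, against 2089 of 5556 genes in all. The interval lay above 1 for 3 of the members and 711 of the genes. Rps28 went from 93.5 in S3 to 135 non-globin CPM in S4/S5, a ratio of 1.44 (1.15–1.80), on 303 and 182 UMIs. Rpl27 (1.28, 0.830–1.96), Rps26 (1.16, 0.965–1.40), Rps21 (1.15, 1.01–1.31) and Rpl38 (1.12, 0.962–1.30) made up the 5 highest. In cells with at least 2000 non-globin UMIs, Rps21 had 0.813 and Rpl38 0.931, so the direction of these 2 turned, while Rps28 had 1.46. Rpl38 stood at 273, 264, 253, 249, 240 and 268 non-globin CPM from S0-low to S4/S5, with an S4/S5 over S0-low ratio of 0.980 (0.864–1.11). Rps29, named after its values were seen, stood at 424, 399, 385, 386, 357 and 382. It is among 18 Diamond-Blackfan anaemia genes that all had an S3 over S0-low interval below 1. So did 74 of 80 members tested and 5822 of 9409 genes in all. Over all cells of a stage, Rpl38 and Rps29 thus ended near their start, where the RP sum had fallen to 0.474. In cells with 2000 to 4000 non-globin UMIs, Rps29 was lower in S4/S5, at 334 against 463 in S0-low. Rpl38 was at 229 and 254 there.

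**Figure D5:**
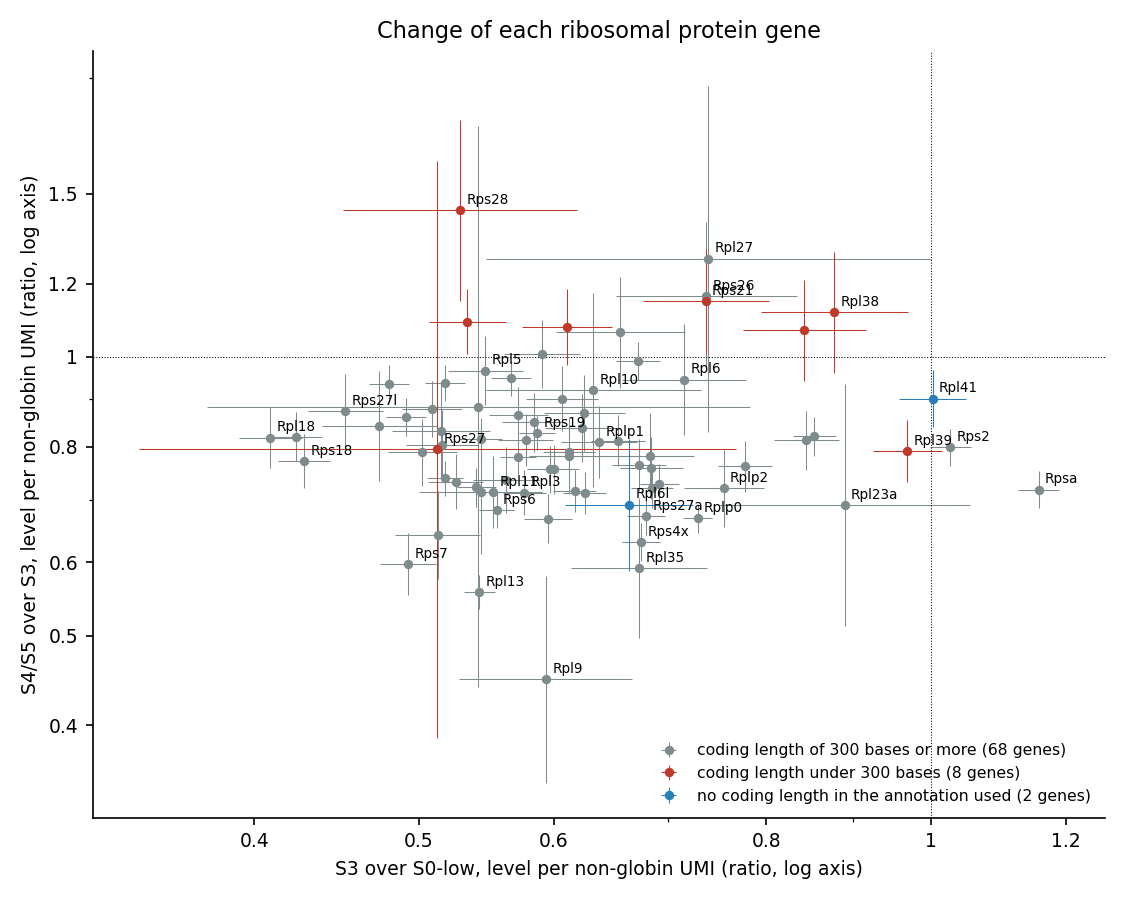
Ratio of each ribosomal protein gene per non-globin UMI for S3 over S0-low (x, log axis) and S4/S5 over S3 (y, log axis), for the 78 members with at least 50 UMIs in both comparisons, with 95% counting intervals. Colours mark coding length (the longest listed for each gene), and genes described in the text are labelled. Most points lie left of and below 1, Rpsa lies furthest right, and genes with a coding length under 300 bases (red) mostly lie high on y. The 2 axes share the S3 cells.

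Coding length was the longest coding sequence listed for a symbol in the GENCODE M1 annotation, known for 79 members. It was 3153 bases for Rpl24 and 639 for Rps19, and was missing for Rpl41. The class of a gene thus depends on the transcripts listed, and the longest need not be the main one. For S4/S5 over S3 the 8 tested members under 300 bases had a median ratio of 1.08, with single members from 0.791 to 1.44. The classes of 300 to under 450, 450 to under 600 and at least 600 bases had medians of 0.81, 0.77 and 0.79. For S3 over S2 the same classes had 0.82, 0.67, 0.62 and 0.63, and for S2 over S1 they had 0.83, 0.89, 0.88 and 0.90. The shortest genes thus had the highest median at the last 2 steps and the lowest at the step before. For S3 over S0-low the classes lay together at 0.61, 0.60, 0.57 and 0.60. Among the shortest, Rps21 and Rpl38 were below 1 at the last step in cells with at least 2000 non-globin UMIs, as given above. Across members the Spearman correlation of coding length with the S4/S5 over S3 ratio was -0.37 (76 genes), and across all genes tested it was -0.22 (5094 genes), so a relation of the same sign was seen over genes at large. With the level in S0-low the correlation of that ratio across members was -0.33 (78 genes), close to the one with coding length. With the length of the C and T run at the start it was -0.03 (57 genes), and for S3 over S0-low it was -0.01 (59 genes). The run was read at 1 listed start per gene, and a shifted start changes its length. Whether the run bears on these ratios was not tested. Over members, 15 such relations with length, GC content, the run and the level were computed, all within 1 library, and are given as descriptions.

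The stalk proteins and the 5S partners showed the range within a functional group. Rplp0 rose from 7617 in S0-low to 9061 in S0-medium and 9059 in S1, then had 8297 in S2, 5554 in S3 and 3720 in S4/S5. Rplp1, which binds it, rose from 1259 to 1472 by S0-medium and ended at 650, while Rplp2, its partner, stood at 1006, 1001, 995 and 982 through S2 and ended at 548. For S0-medium over S0-low the ratios were 1.19 (1.18–1.203) for Rplp0, 1.17 (1.14–1.201) for Rplp1 and 0.996 (0.965–1.03) for Rplp2, so Rplp0 and Rplp1 rose beyond counting error and the interval of Rplp2 held 1. Rpl5 and Rpl11, which with 5S rRNA can bind Mdm2 and so stabilise p53, had 1440 and 1541 in S0-low and 788 and 852 in S3. From S3 to S4/S5 Rpl5 had a ratio of 0.967 (0.888–1.05) and Rpl11 of 0.714 (0.653–0.781).

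Rps27a, made as a fusion with ubiquitin, went from 4512 in S0-low to 5464 in S1, 3068 in S3 and 2065 in S4/S5. Rps19, the gene most often mutated in Diamond-Blackfan anaemia, had 5955, 5633, 5657, 5221, 3493 and 2893 non-globin CPM from S0-low to S4/S5, with an S3 over S0-low ratio of 0.587 (0.572–0.601). Of 18 RP genes mutated in that anaemia, 12 (against 62.1% of all genes) were lower by 1.5-fold in S3 than in S0-low, with a median of 0.59 against 0.60 for all members tested. From S3 to S4/S5, 2 of the 18 were lower, against 22.7% of all genes and 6 of 78 members.

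The 5 paralog rows were unequal. Rps27l was at 1620 in S0-low and 733 in S3, far above its parent Rps27 at 28.5 and 14.6. Rpl6l was at 405 and 269, beside Rpl6 at 449 and 321. Rpl39l, at 8.41 and 5.08, and Rpl10l, at 5.47 and 0.446, were rare beside Rpl39 and beside Rpl10, which had 164 and 104. Rpl3l, the paralog of striated muscle, had 0 UMIs in S0-low, S1 and S4/S5, each of which allows up to 3, and 2 UMIs in S3, while Rpl3 had 3900 non-globin CPM in S0-low. Rpl6 and Rpl6l, and Rps27 and Rps27rt, are close copies, so unique mapping can split or drop their reads.

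Several low rows had a pseudogene row with a higher count. Rps12 was at 26.5 non-globin CPM in S0-low and Rps12-ps3 at 229. Rpl27 was at 38.9 and Rpl27-ps3 at 122, and Rpl10 was at 164 and Rpl10-ps3 at 359. From S0-low to S3 some pairs had like ratios, at 0.633 (0.547–0.732) for Rpl10 and 0.636 (0.577–0.702) for Rpl10-ps3, and 0.428 (0.413–0.443) for Rps18 and 0.406 (0.342–0.482) for Rps18-ps3. Others were further apart, at 0.542 (0.375–0.783) for Rps12 and 0.439 (0.383–0.504) for Rps12-ps3. Levels of Rps12, Rps27, Rpl27, Rpl23a, Rpl10 and Rpl9 are therefore uncertain. Adding 16 pseudogene rows to their parents left 56 members lower by 1.5-fold in S3 than in S0-low, against 55 without them.

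Within S0-low, cells high in cKit, the stem cell factor receptor of early progenitors, had an RP share of 20.03% of non-globin UMIs (896 cells), and cells low in cKit 18.1% (614 cells), a ratio of 1.11. The hepatocyte and myeloid genes differed between these classes, as given above, and their part in the difference was not tested. Against the cKit-high class alone, which also had the myeloid transcripts, the S3 ratio was 0.583. The 820 cells set aside for high lineage antibodies (CD11b, CD41 and others) had a share of 16.4%, or 0.853 times that of S0-low.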

How the data were processed

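CITE-seq was run on 1 suspension of fetal liver cells, giving a 3′ cDNA library (10x chemistry v2) and a library of 10 antibody tags from the same cells. The deposited gene values are raw UMI counts per cell that the authors made with Cell Ranger against mm10, and the antibody values are counts per tag that the authors deposited, made with CITE-seq-Count. Whether antibody reads were collapsed by UMI is not given in the sources used here, and 1.05% of antibody reads matched no tag. A cell had 2510 to 38047 UMIs.

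Of 7863 cells, 7355 passed the limits of 300 to 5000 detected genes and 9% mitochondrial transcripts. Scrublet, in scanpy, called 128 doublets (1.63%) at an expected rate of 6%, and without these 7244 cells were left. Cells whose summed counts of 5 lineage antibodies exceeded the median plus 2 scaled median absolute deviations on the log scale (95.8 counts) were set aside (820). This scale was chosen after the data were seen. Antibody counts were centred log ratios over cells, divided by k-means in 1 dimension (seed 7). The Ter119 borders lay at 24.5 and 88.5 counts, and the CD71 borders at 233.5 and 765 in Ter119-low and at 733 in Ter119-high cells. 215 cells, intermediate in Ter119 without high CD71, had no stage. The gates are rebuilt, so they may differ from those of the study.

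Levels were means over cells of CPM, or of counts per 1000000 UMIs outside the globin genes, and intervals (95%) were from weighted Poisson sums. Genes with at least 50 UMIs over both stages were compared, at a fold of 1.5, and with 1 library no test was made. On data simulated for S3 over S0-low (17758 genes, 200 changed), 196 changed genes had the right direction, 186 of their intervals held the true ratio, and so did 94.75% of intervals of unchanged genes. The simulated cells of a stage were Poisson draws from 1 shared profile, the same model that the intervals assume. These shares therefore check the calculation and do not carry over to real cells, which differ within a stage. The genes named were the stalk, 5S, ubiquitin-fusion and paralog members with their parents, Rpsa, Rps19, the 5 highest in S0-low and the 5 highest and 5 lowest ratios of S3 over S0-low and of S4/S5 over S3, and some of these are not reported here. Members and lists were chosen with earlier results of these data known, and the length classes, the run of C and T, the letters searched, the depth window and the genes drawn in colour after values were seen. Promoters (60 of 81 members matched) are those of RefSeq for GRCm38.p6. Alternatives were other antibody scales and mixtures, filters, folds, pooled UMIs and added pseudogene rows. The tools were scanpy 1.11.5, scikit-learn 1.9.0, matplotlib 3.10.9, pandas 2.3.3, scipy 1.17.1 and numpy 2.4.6 in Python 3.11.15.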

Additional observations from a re-analysis of the deposited data

How the results depend on the processing

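No paired analysis was possible because there is 1 library of each kind and no replicate to leave out. The RP sum was lower in S3 than in S0-low and lower in S4/S5 than in S3 under every alternative run. For S3 over S0-low in CPM (0.386 as reported) it was 0.4355 with log10 antibody counts, 0.3437 with antibodies scaled within each cell, 0.4068 with doublet calls kept, 0.4181 with no lineage filter, 0.404 with no quality filter, 0.4847 with pooled UMIs, 0.3693 against cKit-high S0-low cells and 0.338 in UMIs per cell. Per non-globin UMI (0.607 as reported) the same settings up to the cKit class gave 0.6419, 0.5658, 0.6243, 0.6396, 0.6299, 0.7726 and 0.5833, and a Gaussian mixture gave 0.5978.

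For S4/S5 over S3 in CPM (0.431 as reported) it was 0.3687 with log10 counts, 0.4605 with scaling within each cell, 0.4189 with the mixture, 0.4201 with doublets kept, 0.5048 with no lineage filter, 0.4203 with no quality filter, 0.4037 with pooled UMIs and 0.3234 in UMIs per cell. Per non-globin UMI (0.780 as reported) it was 0.7308, 0.8157, 0.7679, 0.7627 and 0.7895 for the first 5 of these and 0.6989 with pooled UMIs. Members lower by 1.5-fold in S4/S5 (6 as reported) numbered 13 with log10 counts, 10 with the mixture and 10 with doublets kept. The share of all genes was not computed under these gates, so the members cannot be set beside it there. With pooled UMIs 25 members were lower, against 19.5% of all genes. At a fold of 2 it was 1 member, against 8.03%, and at a ratio of 0.8 or less 39, against 38.5%. In S3 against S0-low (55 as reported) 13 members were lower with pooled UMIs, against 55.4% of all genes. At a fold of 2 it was 9 members, against 49%.

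With alternatives added after the data were seen, the median over cells gave 0.2762 and 0.5432 for S3 over S0-low (CPM, then per non-globin UMI) and 0.4757 and 0.829 for S4/S5 over S3. Cells with at least 2000 non-globin UMIs gave 0.5041, 0.6998, 0.6645 and 0.7385. Of 660 values of the 37 named members under alternatives, 443 moved by less than their interval and 217 by more. The cause of these shifts was not tested.

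With 1 library from pooled embryos, intervals leave out differences between animals, and they also leave out differences between the cells of a stage. S4/S5 cells had a median of 1238 non-globin UMIs, so members under about 100 non-globin CPM rest on few UMIs there, as with Rpl10l at 4 and Rpl39l at 4.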

Other observations

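Some genes of the cytosolic ribosome lie outside the symbol rule. Rps3a1, a 40S protein, was at 4472 non-globin CPM in S0-low, Rpl22l1, a paralog of Rpl22, at 2509, and Gnb2l1, the 40S-bound scaffold RACK1, at 1792. Rpl36al was at 987. Fau, which encodes a 40S protein fused to a ubiquitin-like protein, was at 11.002, far below the ubiquitin fusion Rps27a at 4512.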
